A study of Homo sapiens with 2 samples.

Results

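The laminin chain and nidogen genes were read in Panc1, a cell line grown from a human ductal carcinoma of the pancreas. The genes are LAMA3, LAMA4, LAMA5, LAMB1, LAMB2, LAMB3, LAMC1, NID1 and NID2, and every probe set whose platform annotation gives exactly 1 symbol from this list was taken. That gave 16 probe sets for 8 of the 9 genes, of 54675 probe sets in all. LAMA3 was not analysed here. Panc1/syk-wt is a stable population transfected with wild-type syk, which encodes a non-receptor tyrosine kinase. Panc1/mock, which it is set against, carries the vector alone, and the series title calls it drug-resistant. Both populations were kept under hygromycin, passaged alike and harvested below confluence, and the sources used here do not give whether either grew from 1 clone. Each population had 1 array, so no value below has a replicate error and no test was possible. Population, RNA preparation and array cannot be told apart.

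Laminins are secreted heterotrimers of an alpha, a beta and a gamma chain that polymerise into the sheet-like core of basement membranes. The alpha chain carries the main binding sites for integrins and dystroglycan, and the gamma1 chain carries the binding site for nidogen. Nidogens are short linker glycoproteins that join the laminin network to type IV collagen and to the heparan sulfate proteoglycan perlecan. Epithelial cells, pancreatic ducts included, rest on such a membrane, and carcinoma cells often make laminins of their own.

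The 2 arrays had medians of 4.24 (Panc1/syk-wt) and 4.26 (Panc1/mock) on the log2 scale, and 18 hybridisation controls differed by a median of 0.01. SYK was no clear check of the labels: its brightest probe set read 4.73 on the syk-wt array and 4.27 on the mock array, and its other 3 probe sets differed by -0.27 to -0.07. Every direction below therefore rests on the labels. The 3' minus 5' signal of the ACTB control, a measure of RNA integrity, was 2.37 on the syk-wt array and 1.95 on the mock array, and its part in the differences below was not tested. The highest of 27 bacterial control probe sets, 4.77, is used below as the level at or under which a probe set is called dim. Values at or under it have no order, and a fold against 1 such value is given as a lower bound. Every SYK probe set was dim on both arrays, so the SYK values above have no readable direction. Counts and medians over genes use the values as measured unless dim genes are named. The level rests on 1 control, since the next highest reached 3.61. At 3.61, 4 of the 5 LAMA4 probe sets, the LAMB3 probe set and the third NID1 probe set would lie above it on at least 1 array, and NID2 would stay under it.

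NID1 and LAMA5 were lower in Panc1/syk-wt by over 2-fold, LAMC1 and LAMB2 by less, and the LAMB1 probe sets differed by 0.03 and 0.08 on the log2 scale. LAMA4, LAMB3 and NID2 were dim on both arrays. Genes were counted when their brightest probe set, by its mean over the arrays, reached 4.25, the 50th percentile of all probe sets, and 5 of the 8 genes did so. Of these 5, 2 were lower by 2-fold or more in Panc1/syk-wt and 0 were higher by 2-fold or more. Among all 12814 genes past the same filter, 3.65% were lower by 2-fold or more and 3.61% were higher by that much. The 5 genes had a median log2 difference (syk-wt minus mock) of -0.90, beside 0.01 over all 12814 genes, and 4 of the 5 were below 0, beside 47.8% of all genes. Bulk RNA cannot separate fewer cells making a transcript from less transcript per cell.

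**Figure D1:**
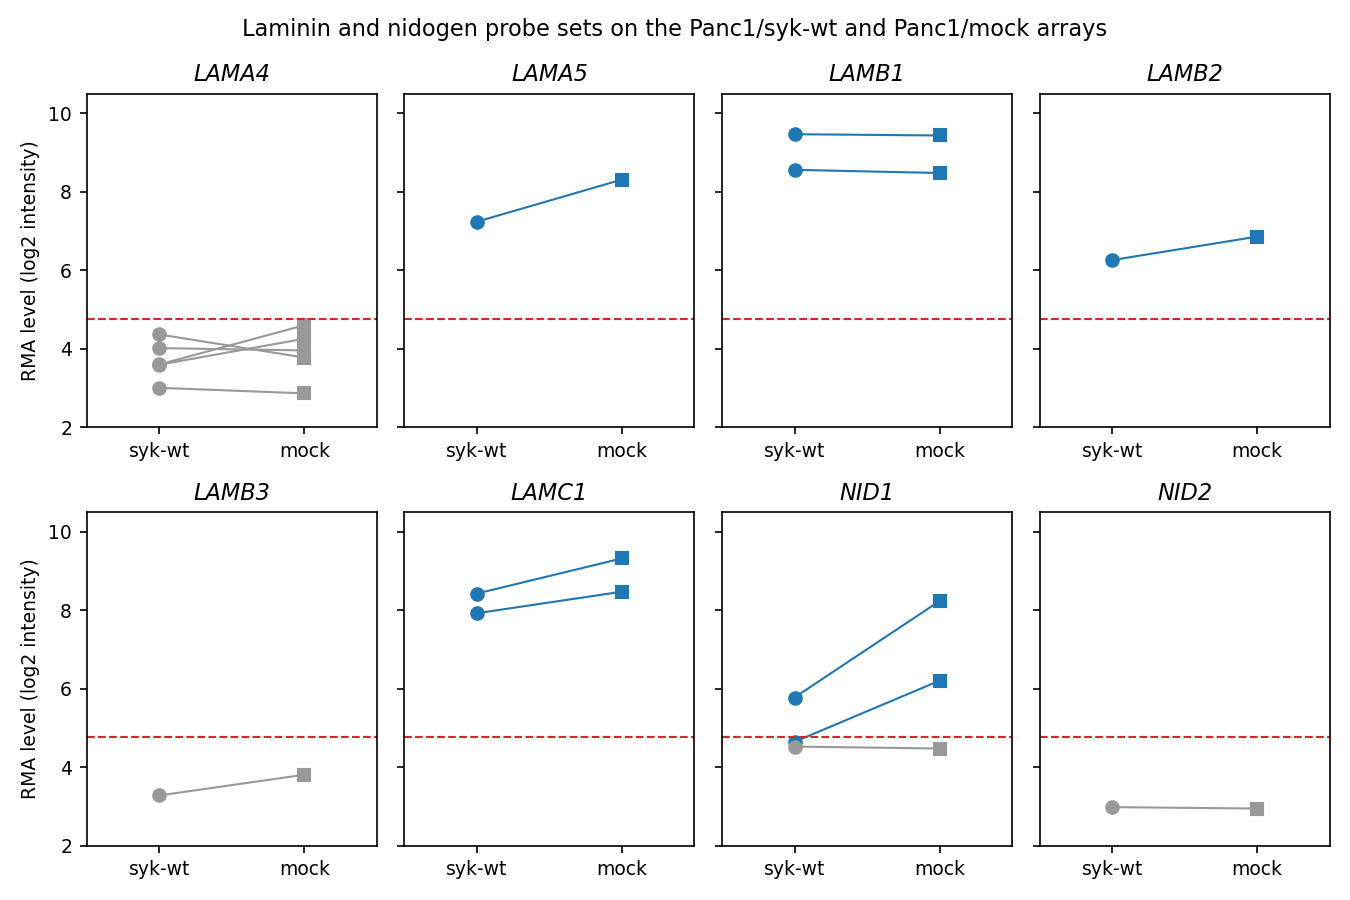
RMA level (log2 intensity) of each of the 16 probe sets, with the Panc1/syk-wt array (circles) left of the Panc1/mock array (squares) and a line joining the values of 1 probe set. The dashed line is the dim level, 4.77, and grey probe sets lie at or below it on both arrays; the steepest lines are those of NID1, and both LAMB1 lines are flat.

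Of the listed alpha chains that were read, LAMA4 and LAMA5, only LAMA5 was above the dim level. LAMA3 was not analysed, so nothing is said of its level. LAMA5 encodes the alpha5 chain, the long alpha chain of most adult epithelial basement membranes. Its single usable probe set read 7.23 in Panc1/syk-wt and 8.31 in Panc1/mock, a log2 difference of -1.07 or 2.10-fold lower. This is just past the 2-fold mark, at rank 393 from the lowest of the 12814 genes. Another probe set, annotated to LAMA5 together with its antisense gene, was left out by the rule. The antisense gene's own probe set was dim on both arrays, at 4.48 in Panc1/syk-wt and 4.25 in Panc1/mock.

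LAMA4 encodes the alpha4 chain, a shorter chain typical of vessels, muscle and other mesenchymal tissue. All 5 of its probe sets were dim on both arrays, between 3.003 and 4.36 in Panc1/syk-wt and between 2.86 and 4.60 in Panc1/mock. The largest LAMA4 difference was in its brightest probe set, 3.60 in Panc1/syk-wt against 4.60 in Panc1/mock. The next brightest ran the other way, at 4.36 in Panc1/syk-wt and 3.77 in Panc1/mock. The 5 probe sets thus gave differences from -1.0005 to 0.59 with both signs among them, and no fold is given for LAMA4.

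The beta chains parted. LAMB1 encodes the beta1 chain, which pairs with several alpha chains from early development on. Its brighter probe set read 9.46 in Panc1/syk-wt and 9.43 in Panc1/mock, a log2 difference of 0.03. Its second probe set read 8.56 in Panc1/syk-wt and 8.47 in Panc1/mock, a difference of 0.08. Both were bright, and neither differed by more than the pooled SD of 0.35 seen between probe sets of 1 gene over 6028 genes. That SD covers probe behaviour and transcript variants within these arrays, and no variation between cultures.

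LAMB2 encodes the beta2 chain, which takes the place of beta1 in the laminins of synapses and the kidney glomerulus. It read 6.26 in Panc1/syk-wt and 6.85 in Panc1/mock, a difference of -0.60 or 1.51-fold lower, by its single probe set. LAMB3 encodes the beta3 chain, part of the laminin that anchors epithelia through hemidesmosomes. It was dim, at 3.28 in Panc1/syk-wt and 3.81 in Panc1/mock. The probe set of the pseudogene LAMB2P1, named after its values were seen, was dim as well, at 4.20 in Panc1/syk-wt and 4.31 in Panc1/mock.

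LAMC1, the gamma1 chain shared by most laminins, was lower by both probe sets. The brighter one read 8.42 in Panc1/syk-wt and 9.32 in Panc1/mock, a difference of -0.90 or 1.86-fold lower. The other read 7.92 in Panc1/syk-wt and 8.47 in Panc1/mock, a difference of -0.55 or 1.46-fold lower. The pair did not reach 2-fold, and its brighter probe set ranked 605 from the lowest of all genes. Neither gamma1 difference thus lay near the beta1 differences of 0.03 and 0.08 on the same arrays, although the chains assemble in 1 trimer.

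NID1, which encodes nidogen-1 (entactin), had the largest difference of the 8 genes. Its brightest probe set read 5.77 in Panc1/syk-wt and 8.23 in Panc1/mock, a log2 difference of -2.46 or 5.50-fold lower. This was rank 41 from the lowest of 12814 genes. Its second probe set read 4.64 in Panc1/syk-wt, under the dim level, and 6.20 in Panc1/mock, which makes it at least 2.71-fold lower. The third was dim on both arrays, at 4.52 in Panc1/syk-wt and 4.47 in Panc1/mock, and carries no fold. NID2, the second nidogen gene, read 2.98 in Panc1/syk-wt and 2.95 in Panc1/mock. Its single probe set thus lay under the dim level on both arrays, near the bacterial control medians of 2.91 in Panc1/syk-wt and 2.80 in Panc1/mock.

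**Figure D2:**
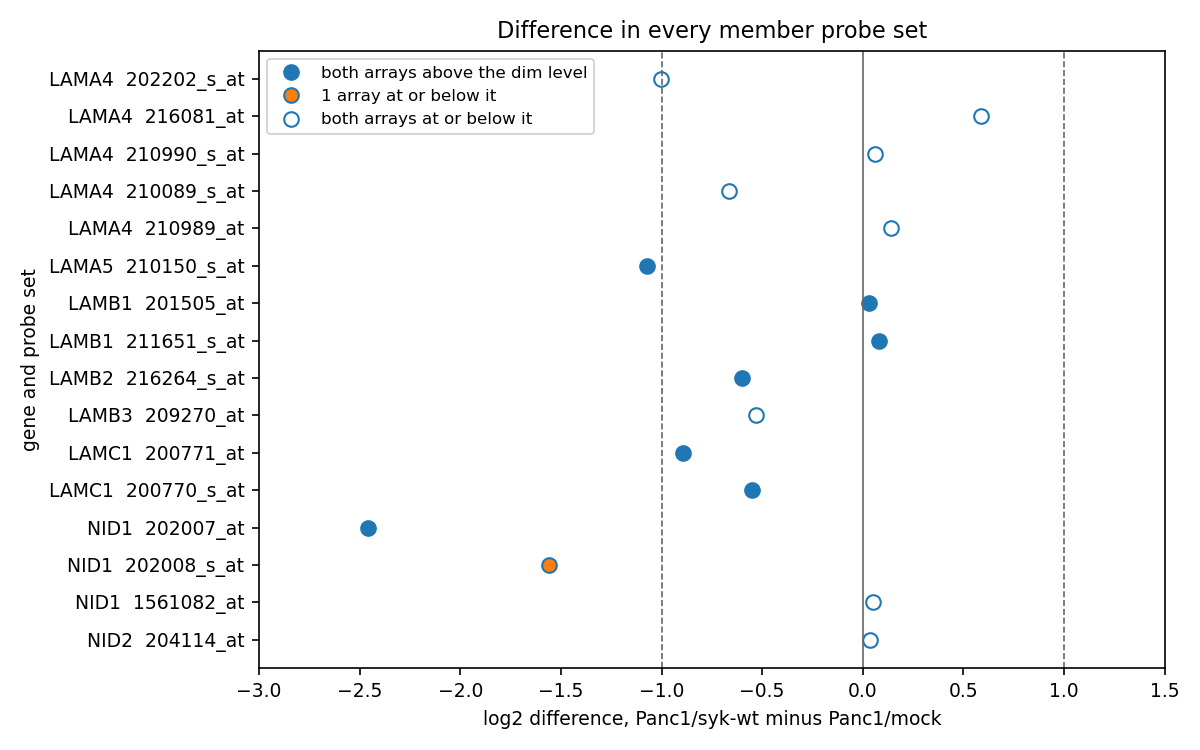
Log2 difference, Panc1/syk-wt minus Panc1/mock, for every probe set, with dashed lines at 2-fold. Open circles are dim on both arrays and the orange circle is dim on the syk-wt array; of the 7 filled blue circles, 5 lie below 0 and both LAMB1 circles just above it.

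By probe set rather than by gene, 9 of the 16 passed the filter, and 3 of these were lower by 2-fold or more in Panc1/syk-wt (the LAMA5 set and a pair for NID1), beside 3.48% of all 23066 singly annotated probe sets past the filter. The 8 probe sets dim on both arrays went both ways, 3 below 0 and 5 above.

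**Figure D3:**
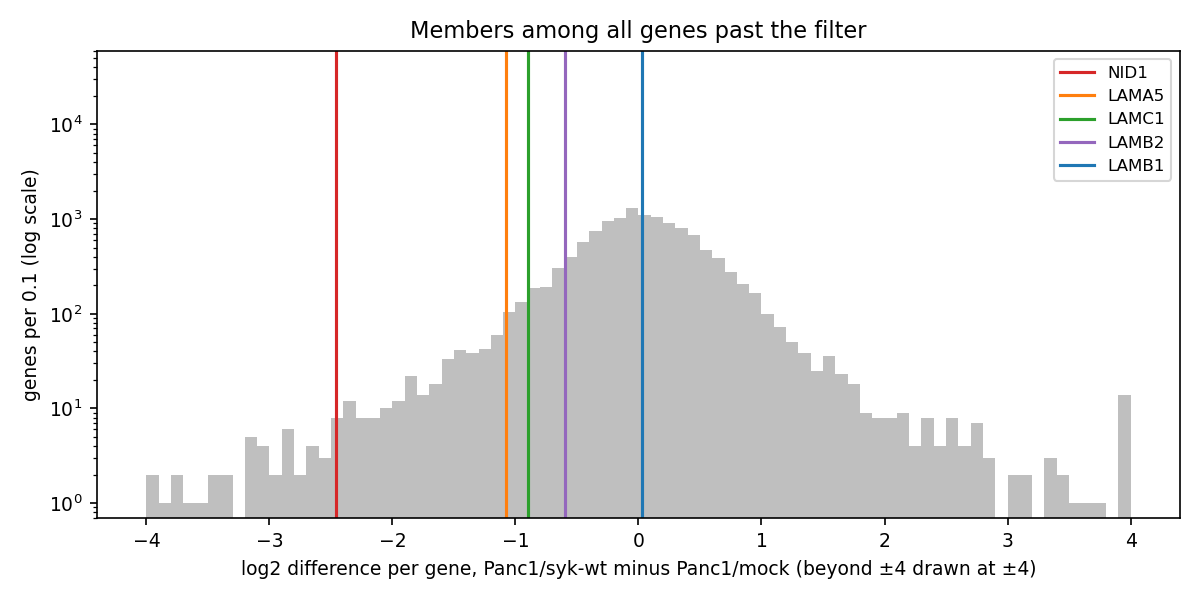
Distribution of the log2 difference per gene, Panc1/syk-wt minus Panc1/mock, over the 12814 genes past the filter (grey, log count axis), with the 5 laminin and nidogen genes past it as vertical lines. NID1 lies in the thin lower tail, LAMA5, LAMC1 and LAMB2 on the lower shoulder and LAMB1 near the centre.

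The genes next to NID1 on chromosome 1 were mostly lower too. In the RefSeq order of protein-coding genes, 15 of the 16 genes within 8 places of NID1 passed the filter. Of these 15, 14 were below 0, beside 47.8% of all genes past the filter, and their median was -0.45. As 3 of the 15 were dim on both arrays (GNG4, EDARADD and ACTN2), 12 had a readable direction, and these 12 were all below 0. By the measured values 3 of the 15 were lower by 2-fold or more, beside 3.65% of all genes. With values floored at the dim level 2 were, GPR137B and LGALS8. The window, and the neighbours named from it, were chosen after the values had been seen. GPR137B, a lysosomal membrane protein and the next gene on one side, read 6.47 in Panc1/syk-wt and 8.36 in Panc1/mock, 3.71-fold lower. LGALS8, a beta-galactoside-binding lectin 4 places away, read 8.49 in Panc1/syk-wt and 10.03 in Panc1/mock, and its 6 probe sets differed by -2.04 to -0.99. LYST, a regulator of lysosome size and the next gene on the other side, read 8.42 in Panc1/syk-wt and 9.37 in Panc1/mock, although its second probe set differed by 0.08. ERO1B, an oxidase of the endoplasmic reticulum, read 4.08 in Panc1/syk-wt and 5.23 in Panc1/mock, at least 1.38-fold lower. The largest differences thus lay at NID1 and within 4 places of it, and the measured genes farther out lay between -0.45 and 0.06.

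The windows around LAMA5, LAMC1 and LAMB1 were mixed, and the LAMB2 window lay mostly below 0. Over all genes past the filter, 47.8% were below 0. Around LAMA5 on chromosome 20, 5 of 15 measured neighbours were below 0, with a median of 0.12. Its direct neighbours ADRM1, a proteasome receptor, and RPS21, a ribosomal protein, differed by 0.20 and 0.12. Farther out, the transcription factor GATA5, 4 places from LAMA5, read 4.39 in Panc1/syk-wt and 5.89 in Panc1/mock, at least 2.18-fold lower, and SLCO4A1, an organic anion transporter 5 places away, differed by -0.97. Around LAMC1, 2 of 5 measured neighbours were below 0, and 1 of the 5, RGS16, was dim on both arrays and is itself the median of 0.29. NMNAT2, an NAD synthesis enzyme 2 places from LAMC1, read 5.70 in Panc1/syk-wt and was dim at 4.20 in Panc1/mock. The other NMNAT2 probe set differed by 0.05. Around LAMB1, 3 of 9 were below 0 (median 0.34), with the signalling protein DOCK4, 8 places away, at 8.89 in Panc1/syk-wt and 7.40 in Panc1/mock. Around LAMB2, 9 of 12 were below 0 (median -0.27). As 1 of the 12, IHO1, was dim on both arrays, 11 had a readable direction, and 9 of these were below 0. KLHDC8B, 2 places away, was 2.06-fold lower. GPX1 differed by -0.98, NDUFAF3 by -0.75 and DALRD3 by -0.98 (its other probe set by -0.23), beside -0.60 for LAMB2 itself. IMPDH2 and USP4 were above 0, at 0.28 and 0.19. Gene dosage was not measured, and its part in the differences of NID1, LAMB2 and the other genes was not tested.

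**Figure D4:**
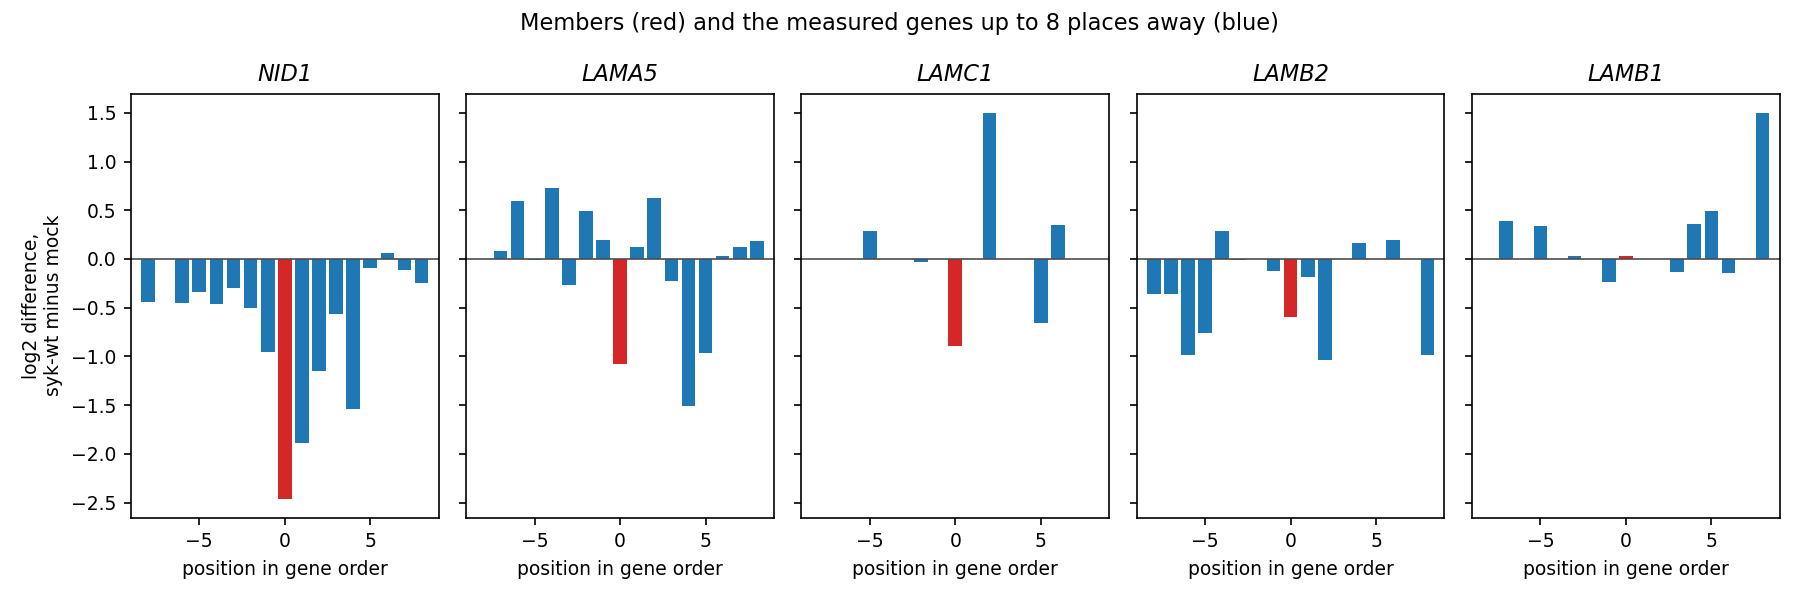
Log2 difference, Panc1/syk-wt minus Panc1/mock, of each laminin or nidogen gene past the filter (red) and of the measured protein-coding genes up to 8 places away in gene order (blue). A gap is a gene not past the filter, or a bar close to 0; around NID1, 14 of 15 neighbours point down.

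The upstream sequence is shown for NID1 and LAMA5, the genes past 2-fold, and for LAMB1, the bright gene without a difference. Each run is the 250 bases before the RefSeq gene start (GRCh38.p14), 5' to 3' on the gene's strand. Capitals mark GGGCGG on either strand, the GC box bound by SP1-type factors, with overlapping matches counted singly.
NID1, chr1:236065091-236065340, minus strand: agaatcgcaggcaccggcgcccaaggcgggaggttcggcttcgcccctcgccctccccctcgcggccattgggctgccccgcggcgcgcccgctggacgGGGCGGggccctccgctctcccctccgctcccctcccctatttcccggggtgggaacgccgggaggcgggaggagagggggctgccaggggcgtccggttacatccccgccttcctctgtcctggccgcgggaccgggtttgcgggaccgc
LAMA5, chr20:62367313-62367562, minus strand: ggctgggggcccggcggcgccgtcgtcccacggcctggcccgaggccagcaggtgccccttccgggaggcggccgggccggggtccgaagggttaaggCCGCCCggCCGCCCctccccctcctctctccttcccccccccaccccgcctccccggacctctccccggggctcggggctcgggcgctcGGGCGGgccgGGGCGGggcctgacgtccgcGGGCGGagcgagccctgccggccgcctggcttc
LAMB1, chr7:108003162-108003411, minus strand: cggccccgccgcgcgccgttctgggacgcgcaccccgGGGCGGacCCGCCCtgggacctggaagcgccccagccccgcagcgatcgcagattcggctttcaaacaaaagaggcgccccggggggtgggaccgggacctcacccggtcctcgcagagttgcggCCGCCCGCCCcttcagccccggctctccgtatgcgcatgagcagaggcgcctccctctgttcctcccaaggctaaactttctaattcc
The NID1 window holds 1 match, the LAMA5 window 5 and the LAMB1 window 4. The LAMC1 window holds 3 and the LAMB2 window 1, so the count did not follow the size of the difference. Over all 9 genes, which have 11 windows in the RefSeq table, 10 windows hold at least 1 match, beside 42.6% of all 35116 windows. LAMB3 has several of the 11 windows, some of them overlapping, and by gene 8 of the 9 have a match. G and C made up 76.4% of the NID1 window, 82.8% of the LAMA5 window and 70.4% of the LAMB1 window, beside a median of 58.0% over all windows. Over the 11 windows the share ran from 48.4% (LAMA4) to 82.8%, and a LAMB3 window at 54.0% was also under that median. TATAAA on either strand was in 0 of the 11 windows, beside 10.7% of all. TGANTCA, the AP-1 motif, was in 2 (LAMA3 and a LAMB3 window), beside 6.57% of all. The E-box CANNTG was in 6, which belong to 4 genes, beside 61.8% of all.

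Partners of the laminins were counted in lists of related genes. Beside each count stand the shares over all 12814 genes. These were 47.8% below 0, 3.65% lower by 2-fold or more and 3.61% higher by that much. Of the list of other laminin and netrin-type chains, 4 of 10 passed the filter. NTNG2 was dim on both arrays, the other 3 were below 0, and 1 was at least 2-fold lower (median -0.53). That gene was NTN4, a netrin that binds laminin gamma1 and loosens laminin networks, at 6.91 in Panc1/syk-wt and 8.36 in Panc1/mock, 2.74-fold lower. The axon guidance netrin NTN1 read 4.95 in Panc1/syk-wt and 5.76 in Panc1/mock, and its other probe set differed by -0.17. NTNG1 differed by -0.18. The laminin chains LAMA1, LAMA2, LAMB4 and LAMC3 were dim on both arrays in every probe set, and none exceeded 4.10 in Panc1/syk-wt or 4.44 in Panc1/mock.

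Of 14 measured laminin receptors and hemidesmosome genes, 2 were lower by 2-fold or more and 0 higher by that much (median -0.32, with 11 below 0). ITGB4, the integrin beta4 subunit that binds laminin in hemidesmosomes, read 5.60 in Panc1/syk-wt and 7.50 in Panc1/mock, 3.73-fold lower, although its 3 probe sets spanned -1.90 to -0.11. SDC2, a cell-surface heparan sulfate proteoglycan, was 3.34-fold lower, with all 3 probe sets between -1.86 and -1.21. Of the alpha subunits of laminin-binding integrins, ITGA6, the partner of ITGB4, differed by -0.04 (its other probe set by -0.35) and ITGA3 by -0.01. ITGB1, the common beta subunit, was bright at 11.48 in Panc1/syk-wt and 12.07 in Panc1/mock, and its 3 probe sets differed by -1.14 to -0.59. The hemidesmosome linker DST, dystonin, had probe sets on both sides: its brightest differed by -0.40, and its 6 past the filter ran from -0.70 to 2.26. LGALS3, a lectin that binds laminin sugars, differed by -0.91, and the collagen and laminin receptor subunit ITGA2 by 0.69.

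Among other basement membrane components, 8 of 22 genes passed the filter. All 8 were below 0 and 2 of them at least 2-fold lower (median -0.48), beside 47.8% and 3.65% of all genes. Several of these differences were small: SMOC1, TINAGL1, EGFLAM and COL7A1 differed by -0.28 to -0.06. The other COL7A1 probe set differed by 0.71. FBLN1, a fibulin that binds laminin and nidogen, read 7.37 in Panc1/syk-wt and 8.60 in Panc1/mock, 2.35-fold lower, but its 4 probe sets ran from -1.76 to 0.58. COL18A1, the source of endostatin, was 2.02-fold lower. AGRN (agrin, which links laminin to dystroglycan) differed by -0.75, with probe sets up to 0.15. HSPG2 (perlecan, a nidogen partner) differed by -0.69, and its other probe set by -0.02. Type IV collagen, the other partner of nidogen, was dim: over the 19 probe sets of the 6 chain genes, COL4A1 to COL4A6, the highest value was 4.08 in Panc1/syk-wt and 3.93 in Panc1/mock. Against the next highest control, 3.61, COL4A4 would lie above it on both arrays. So would COL4A1 in Panc1/syk-wt (3.73) and COL4A5 in Panc1/mock (3.83).

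The enzymes that put the laminin-binding sugar on dystroglycan went both ways, 4 of 8 below 0 and 0 past 2-fold (median -0.03). RXYLT1, which adds a ribitol-linked xylose in that glycan, came nearest at 9.70 in Panc1/syk-wt and 8.72 in Panc1/mock, a difference of 0.97. POMT1, which starts the mannose chain, differed by -0.53, POMGNT2 by 0.42 and B4GAT1 by -0.40, with the other B4GAT1 probe set at 0.39. Of 13 measured genes of matrix assembly and processing, 2 were lower by 2-fold or more and 0 higher by that much (median -0.44). MMP2, a gelatinase that also cleaves laminin chains, read 6.18 in Panc1/syk-wt and 9.03 in Panc1/mock, 7.18-fold lower by 1 probe set. LOXL2, a collagen crosslinking oxidase, was 2.58-fold lower by its brighter probe set and differed by -0.69 in the other. SERPINH1, the collagen chaperone, differed by -0.90, and MMP14, the membrane protease that activates MMP2, by -0.80, with MMP14 probe sets up to 0.12.

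**Figure D5:**
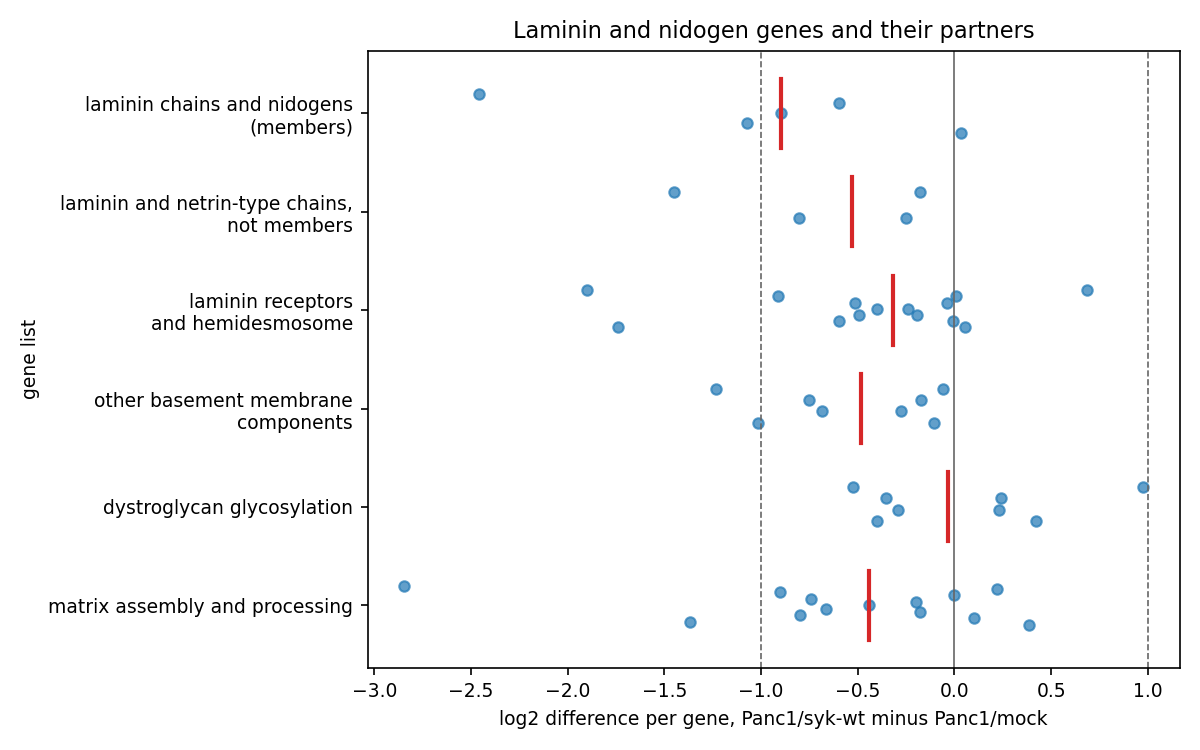
Log2 difference per gene, Panc1/syk-wt minus Panc1/mock, for the laminin and nidogen genes and 5 lists of partners (points), with the list median as a red bar and dashed lines at 2-fold. The laminin and nidogen median is -0.90 and the dystroglycan glycosylation median -0.03.

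Markers of cell identity differed as well, and no marker past the filter was higher by 2-fold or more. All 8 ductal epithelium markers passed the filter and 3 were at least 2-fold lower in Panc1/syk-wt, beside 3.65% of all genes. E-cadherin, CDH1, was dim at 3.47 in Panc1/syk-wt and read 6.34 in Panc1/mock. KRT19, a ductal keratin, was 2.72-fold lower (its other probe set at -0.37). The mucin MUC1 was 2.06-fold lower (its 3 probe sets at -1.18 to -0.88), and the keratin KRT8 differed by -0.76. The other 4 differed by -0.49 (KRT7), -0.23 (KRT18), 0.30 (EPCAM) and 0.34 (SOX9). The second KRT7 probe set differed by 0.16 and the second SOX9 probe set by 0.04. The summed log2 level of the 8 markers was 67.0 in Panc1/syk-wt and 73.2 in Panc1/mock. Of the fibroblast and stellate markers, 6 of 8 were dim on both arrays, with sums of 37.7 in Panc1/syk-wt and 38.5 in Panc1/mock. COL1A1 was 2.13-fold lower, although its 4 probe sets past the filter ran from -1.09 to -0.09. ACTA2 was dim at 4.44 in Panc1/syk-wt and read 5.18 in Panc1/mock, at least 1.33-fold lower. All 7 endothelial markers (sums of 28.3 in Panc1/syk-wt and 27.8 in Panc1/mock) and all 5 leukocyte markers with a probe set (20.6 in Panc1/syk-wt and 20.1 in Panc1/mock) were dim on both. Smooth muscle and pericyte markers summed to 32.7 in Panc1/syk-wt and 33.4 in Panc1/mock, with 1 of 6 dim on both. Of the 5 past the filter, 3 were above 0 and the median was 0.02. MCAM, an adhesion molecule, was 2.34-fold lower by its brighter probe set and differed by -0.15 in the other, while the pericyte gene RGS5 differed by 0.79, CNN1 by 0.39 and MYH11 by -0.28. The part of these markers in the laminin and nidogen differences was not tested.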

How the data were processed

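Total RNA from 2 Panc1 populations was column-purified and labelled as biotinylated cRNA for Affymetrix arrays, per the labels' protocols. The deposited table holds 1 log2 intensity per probe set and array, and the submitters' processing notes name RMA without a version or settings. RMA subtracts background, aligns the arrays by quantiles and summarises each probe set. It compresses differences between dim probe sets. The log2 scale was taken from the values, which span 2.14 to 14.6 with no centring by gene. The number of arrays limits the precision.

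Names of probe sets came from the platform annotation: 41097 had 1 gene symbol, 1801 several and 11777 none. Of those with 1 symbol, 41043 matched a current RefSeq gene ID. The difference syk-wt minus mock was computed per probe set, and a gene took its probe set with the highest mean. Calculations used Python 3.11.15, pandas 2.3.3 and statsmodels 0.14.6, and were tested on simulated data. With 1 array per group no test was run. The laminin and nidogen genes, the lists and the dim level were chosen with earlier results of these data known. All probe sets of these genes are given, some of those for LAMA4 in the text only as a range. Of each list, the up to 4 genes past the filter with the largest absolute difference are named. The endothelial and leukocyte lists, dim throughout, are excepted. Added to these are the integrin subunits and collagen chains that partner laminins and nidogens. Also named, after their values were seen, were DST, SMOC1, TINAGL1, EGFLAM and COL7A1. So were genes near the laminin and nidogen genes, all 8 ductal markers and dim genes that a count rests on. Alternatives were median centring, a loess trend (span 0.2), the mean or median over probe sets, probe sets ending in _at, other filters and a floor. Promoters came from RefSeq (GRCh38.p14), and no array column was left unused.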

Additional observations from a re-analysis of the deposited data

How the results depend on the processing

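No paired analysis was possible because each group had 1 array. With no replicate error, a value was counted as moved when it shifted by more than 0.35, the pooled SD between probe sets of 1 gene. Over 8 alternatives, 63 of 67 recomputed values stayed within that or, for counts, within 1.5 times, and 0 changed sign against a called difference. With probe sets ending in _at alone, LAMA5, LAMB2 and the second NID1 probe set dropped out. This left 1 gene rather than 2 and 1 probe set rather than 3 at least 2-fold lower. NID1 was at -1.32 by the mean and -1.56 by the median over its probe sets, past 2-fold under all 8 alternatives. LAMA5 stayed between -1.10 and -1.05 under the 7 that kept it, and LAMC1 between -0.93 and -0.72. LAMB2 stayed between -0.60 and -0.58 under the 6 that kept it, and LAMB1 between 0.004 and 0.06. Many of these values could not move. LAMA5 and LAMB2 have 1 usable probe set each, so a mean or median over probe sets repeats it. A filter or floor leaves a gene's value unchanged while its brightest probe set lies above it. Such repeats count among the 63. The median of the genes ran from -0.98 to -0.72. The filter at the 75th percentile left 8031 genes, 4 of them laminins or nidogens. Without a filter, LAMA4 entered as a further gene past 2-fold, making 3, with both of its values dim. Median centring moved the median of all genes to 0.03. Dim signal limits what can be said of LAMA4, LAMB3 and NID2.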
